A study of Mus musculus with 12 samples.

Results

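The nuclear genes of the mitochondrial respiratory chain were examined in ID8 cells with and without cisplatin. The set was defined by gene symbol in the authors' expression table, as protein-coding genes whose names start with Nduf, Uqcr, Cox4 to Cox8 or Atp5, together with Sdha, Sdhb, Sdhc and Sdhd. It held 84 of the 14852 listed genes, of which 11830 were protein-coding. By complex these were 36 genes of complex I, 8 complex I assembly factors (Ndufaf), 4 genes of complex II, 8 of complex III, 11 of complex IV and 16 of complex V. Ndufa4, named for complex I but now placed in complex IV, was kept apart.

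ID8 is a mouse ovarian cancer line that arose from ovarian surface epithelium in culture. Cells were labelled control or cisplatin-treated. Cisplatin is a platinum drug that crosslinks DNA. Part of the RNA was sequenced as input and part after precipitation with an antibody against N4-acetylcytidine (ac4C), a base that the enzyme NAT10 forms in RNA, and the study asked how this mark takes part in the response to cisplatin. There were 12 libraries, 3 each of control input, control precipitate, cisplatin input and cisplatin precipitate. The sources used here give no dose, exposure time or vehicle. The labels do not state that replicates came from different cultures, and p-values then describe only how these libraries vary, possibly for technical reasons. In bulk libraries, a change in the number of cells of a kind and a change in the RNA per cell cannot be told apart.

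The input values corresponded to between 20682920 and 30159427 fragments per library in listed genes. The spread between replicates was wider after cisplatin, with a chi-square per gene of 7.95 to 16.4 between cisplatin libraries and 2.4 to 3.18 between control libraries. Of 14 markers of epithelial and ovarian surface cells, all were listed, and Krt8, Krt18 and Krt19 had 587, 473 and 759 FPKM in control, where FPKM is a fragment count scaled to gene length and library size. Krt7, which is often used to mark epithelium, was at or near 0 (0.178 FPKM in control and 0.0105 FPKM in cisplatin). Of the 13 that were tested, 5 were higher and 7 lower, with a median log2 change of -0.41. Krt8, Krt18 and Krt19 rose, as did Msln by 1.12-fold and Upk1b by 1.25-fold. Wt1, Gata4, Muc16 and Lrrn4 fell by 3.64-fold, 3.1-fold, 5.19-fold and 10.4-fold, and Upk3b, Gata6 and Cdh2 fell by less. The summed level of the 14 genes, most of it from the 3 keratins that rose, was 2150 to 2190 FPKM in control and 2990 to 3340 FPKM in cisplatin libraries. Of the other marker lists, 5 of 8 fibroblast, 2 of 8 immune and 2 of 6 endothelial genes were listed, and the highest of these in either group was Dcn at 12.8 FPKM. The summed immune markers, Cd68 and Cd79a, ran from 2.22 to 2.57 FPKM in control and from 7.53 to 9.92 FPKM in cisplatin, and the endothelial ones, Tek and Vwf, from 0.723 to 0.931 and from 2.75 to 2.96 FPKM. The summed fibroblast markers were lower, at 23.7 to 24.6 FPKM in control and 17.5 to 19.0 FPKM in cisplatin. The part of these marker lists in the results was not tested.

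The respiratory chain passes electrons from NADH (complex I) and succinate (complex II) through complex III to oxygen at complex IV, and the proton gradient that complexes I, III and IV build drives ATP synthase, complex V. Most subunits are encoded in the nucleus and imported, whereas a few subunits of complexes I, III, IV and V are encoded in mitochondrial DNA. Assembly of these complexes therefore needs products of both genomes. Many of the nuclear genes carry promoter sites for NRF1 and for the ETS factor GABP, and their coactivator PGC-1alpha (Ppargc1a) is known for raising respiratory capacity in many tissues.

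After cisplatin, single respiratory chain genes moved in both directions within each complex. Ndufa12, Atp5k, Uqcr10 and Ndufs5 rose more than 2.5-fold, as did Ndufb2 and Ndufaf2 from lower levels, and Atp5g2, Ndufc2, Ndufv3 and Ndufb3 fell by more than 2.2-fold. All 84 genes passed the filter (1 FPKM or more in at least 3 of the input libraries), Ndufb2 through its cisplatin libraries alone, and were tested with limma on log2(FPKM + 1). Of them 31 were higher, 24 lower and 29 not called at an adjusted p of 0.05, so that 65.5% were called, where 81.3% of the 11449 genes tested were called (40.1% higher and 41.1% lower). The split between higher and lower depended on the scaling, with 26 higher and 35 lower both after quantile normalization and after rescaling each library to a common sum. The 3 cisplatin values lay wholly above the 3 control values in 33 genes, wholly below in 27 and overlapped in 24, where 84.2% of all tested genes did not overlap. The median size of a log2 change, regardless of direction, was 0.27 over the 84 genes and 0.52 over all tested genes. A fold of at least 2 beside the call was reached by 8 higher and 5 lower genes, where 32.2% of all tested genes reached it. In the authors' deposited table, 32 of the 84 genes had an adjusted p under 0.05 and a higher level after cisplatin and 23 a lower one (77.8% of all listed genes passed there), and 53 genes were called in the same direction in both analyses.

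**Figure D1:**
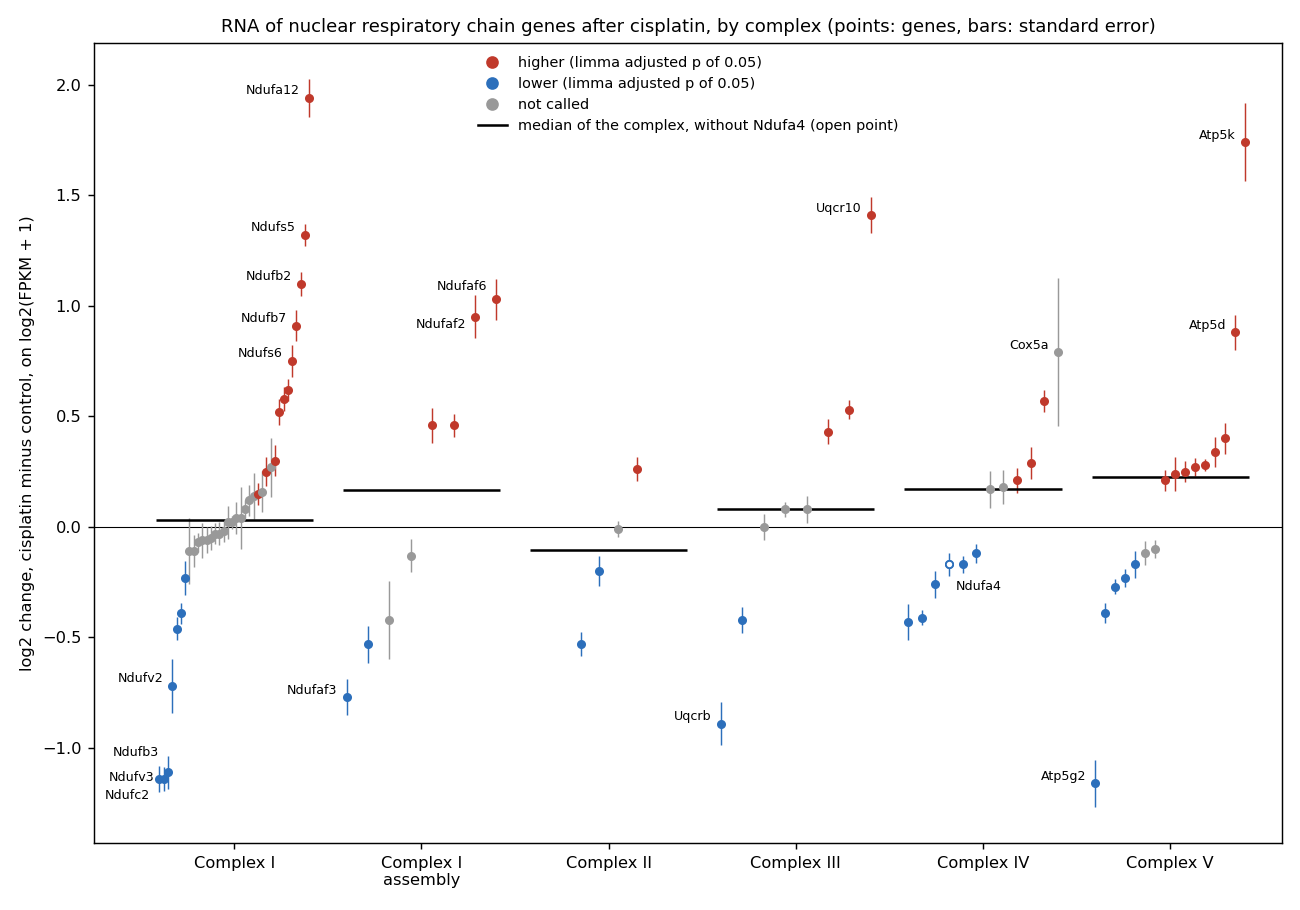
Log2 change after cisplatin of each nuclear respiratory chain gene, on the scale of log2(FPKM + 1), by complex, with the standard error of the limma fit as bars, calls by colour, and the median of each complex as a horizontal line (Ndufa4, the open point, is drawn with complex IV and left out of its median). Most points lie within 0.6 of the zero line and each complex has called genes on both sides of it; the medians of complexes I and III turn negative, and that of complex IV goes to 0.0, under quantile normalization.

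The summed level of the 84 genes was 3930, 3980 and 3890 FPKM in the 3 control libraries and 4290, 4290 and 4130 FPKM in the 3 cisplatin libraries, without overlap. The sum over all listed genes also differed, being 258545.5 to 259158.3 FPKM in control and 275194.8 to 278678.0 FPKM in cisplatin libraries. The respiratory sums were not rescaled to a common total, so their lack of overlap holds for the deposited FPKM only. The part of the differing totals in the respiratory sum was not tested. The median log2 change was 0.03 for complex I, 0.17 for its assembly factors, -0.10 for complex II, 0.08 for complex III, 0.17 for complex IV and 0.22 for complex V, beside -0.003 for all tested genes. After quantile normalization these medians were -0.08 for complex I, -0.29 for complex II, -0.08 for complex III, 0.0 for complex IV and 0.07 for complex V, so that the median kept its sign in complexes II and V but not in complexes I and III.

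Upstream sequences were available for 72 of the 84 genes, with 77 start sites, in a RefSeq table of mouse assembly GRCm38.p6 that holds 250 bases before and 50 after each start. The NRF1 letters GCGCANGCG, searched on both strands, were present at 29.9% of these start sites, at 14.1% of the start sites of all tested genes and at 6.25% of all start sites in the table. They were held by 8 of 27 genes that were higher, 6 of 20 that were lower and 8 of 25 that were not called. The ETS letters CCGGAAG were present at 23.4% of the members' start sites and at 18.9% of those of tested genes, and the YY1 letters AANATGGCG at 14.3% and 5.61%. The GC box GGGCGG was less frequent in the members, at 44.2% of their start sites and 64.9% of those of tested genes, and CCAAT (41.6% and 38.0%) and TATAAA (7.79% and 6.7%) lay closer together. Matches of different motifs were counted separately and may overlap. The 120 bases before the start are printed for the 3 higher and the 3 lower genes of largest change among the 11 genes that have 1 start site and hold the NRF1 letters in this stretch. That genes of both directions show these letters follows from this choice. Capitals mark the NRF1 letters and, in Sdhd, also the ETS letters, and all 6 genes lie on the minus strand of GRCm38.p6, so each sequence is written 5′ to 3′ toward its gene. The stretches are chr5:108434400-108434519 (Atp5k), chr4:123718187-123718306 (Ndufs5), chr13:73328483-73328602 (Ndufs6), chr15:102671048-102671167 (Atp5g2), chr16:37654369-37654488 (Ndufb4) and chr9:50603850-50603969 (Sdhd).
Atp5k: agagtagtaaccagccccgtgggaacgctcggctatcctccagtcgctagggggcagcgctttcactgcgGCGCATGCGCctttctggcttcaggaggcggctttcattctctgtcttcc
Ndufs5: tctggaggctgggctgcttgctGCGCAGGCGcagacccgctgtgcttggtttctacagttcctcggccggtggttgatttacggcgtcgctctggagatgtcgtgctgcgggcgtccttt
Ndufs6: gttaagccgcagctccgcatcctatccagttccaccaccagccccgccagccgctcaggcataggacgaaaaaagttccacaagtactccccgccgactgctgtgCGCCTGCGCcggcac
Atp5g2: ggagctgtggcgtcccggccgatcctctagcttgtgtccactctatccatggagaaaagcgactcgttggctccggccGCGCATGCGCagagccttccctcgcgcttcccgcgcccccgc
Ndufb4: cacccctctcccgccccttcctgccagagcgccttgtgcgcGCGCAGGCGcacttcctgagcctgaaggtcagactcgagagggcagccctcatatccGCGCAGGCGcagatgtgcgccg
Sdhd: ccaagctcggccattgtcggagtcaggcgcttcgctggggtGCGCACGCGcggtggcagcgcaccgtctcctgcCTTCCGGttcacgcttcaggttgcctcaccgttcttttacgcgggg

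The first NRF1 match began 50 bases before the start in Atp5k, 98 in Ndufs5, 15 in Ndufs6, 42 in Atp5g2, and 79 in both Ndufb4 and Sdhd. Atp5k, which rose, and Atp5g2, which fell, hold the same letters there, which match on both strands. Atp5k, Ndufs5 and Ndufs6 changed by 1.74, 1.32 and 0.75 on the log2 scale, and Atp5g2, Ndufb4 and Sdhd by -1.16, -0.23 and -0.20. A match describes letters only, and binding of these factors was not measured.

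Complex I oxidises NADH and is the largest of the 5 complexes. Of its 36 genes, 11 were higher, 7 lower and 18 not called. This balance depended on the scaling, with 10 higher and 14 lower under quantile normalization and 9 higher and 13 lower after rescaling. Ndufa6, Ndufa10 and Ndufb10 were called lower under both of these scalings, though not in the counts given first. The subunits that carry the catalytic cofactors and have relatives in bacteria are called core subunits, and 7 of them are nuclear. Of these, 2 were lower and the other 5 were not called at the limma threshold, and their median log2 change was -0.03. Among the 29 accessory subunits, 11 were higher, 5 lower and 13 not called, with a median of 0.04.

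Of the core subunits, Ndufv2, which holds an iron-sulfur cluster of the NADH-oxidising module, had 56.9, 57.7 and 54.2 FPKM in control and 38.2, 26.9 and 37.4 FPKM in cisplatin libraries. It fell 1.65-fold (log2 change -0.72 ± 0.124 SE, adjusted p = 0.00106), and cisplatin library 2 was the lowest. Ndufs3, of the quinone-binding module, had 7.46, 7.16 and 6.98 FPKM in control and 5.08, 4.71 and 5.12 FPKM in cisplatin and fell 1.45-fold (adjusted p = 0.00012). In both genes the groups did not overlap.

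Other core genes overlapped between the groups. Ndufv1, which binds NADH and flavin, had 36.8, 37.8 and 36.1 FPKM in control and 38.2, 34.2 and 36.0 FPKM in cisplatin, and it was called lower under quantile normalization (log2 change -0.18, adjusted p = 0.00794) and after rescaling (-0.13, adjusted p = 0.0272). Ndufs1, which holds several iron-sulfur clusters, had 16.6, 16.2 and 17.0 FPKM in control and 15.3, 15.5 and 17.2 FPKM in cisplatin (log2 change -0.05, adjusted p = 0.387, and -0.10 with an adjusted p of 0.0397 without cisplatin library 3). After rescaling, Ndufs1 was also called lower (-0.15, adjusted p = 0.0322). Ndufs7, which holds the last cluster before quinone, had 36.4, 37.1 and 38.6 FPKM in control and 39.6, 49.3 and 37.6 FPKM in cisplatin, where library 2 stood highest (log2 change 0.16, adjusted p = 0.149, and 0.24 with an adjusted p of 0.0494 without cisplatin library 3). Ndufs8 had 30.0, 29.5 and 28.7 FPKM in control and 29.3, 34.3 and 27.8 FPKM in cisplatin, with library 2 again highest.

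The largest rise among all 84 genes on the log2(FPKM + 1) scale was in Ndufa12, an accessory subunit of the arm that reaches into the matrix. It had 5.11, 5.99 and 5.19 FPKM in control and 25.3, 24.9 and 21.0 FPKM in cisplatin, a 4.37-fold rise (log2 change 1.94 ± 0.0853 SE, adjusted p = 8.75e-07). Ndufs5, which sits on the side of the intermembrane space, had 18.9, 19.5 and 20.4 FPKM in control and 51.8, 52.2 and 47.6 FPKM in cisplatin (2.58-fold, adjusted p = 4.3e-07). Every cisplatin library lay more than 2-fold above every control library in both genes.

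Ndufb2 and Ndufb7 belong to the membrane arm and were the complex I genes of lowest level among those that rose. Ndufb2 had 0.0629, 0.0776 and 0.107 FPKM in control and 1.27, 1.34 and 1.35 FPKM in cisplatin, from 31 fragments in all control libraries and 573 in all cisplatin libraries. The ratio of its mean levels was 16.1, while its log2 change on log2(FPKM + 1) was 1.10, because the added 1 FPKM exceeds the control level. Ndufb7 had 2.84, 2.71 and 2.54 FPKM in control and 6.12, 6.35 and 5.38 FPKM in cisplatin (2.20-fold).

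The other accessory genes that rose did so by less. Ndufs6, a zinc-binding subunit added late in assembly, went from 13.6 ± 1.46 to 23.5 ± 0.627 FPKM (means with SD over 3 libraries, here and below). Ndufb6, Ndufa5 and Ndufa11 rose by 1.55-fold, 1.52-fold and 1.53-fold, and Ndufb5 by 1.29-fold. Ndufc1 and Ndufa2 were called at 1.22-fold and 1.11-fold, but neither call held with every library rescaled to the same sum (adjusted p = 0.0507 and 0.398). Ndufa2 had the highest level of the 84 genes, with 536, 524 and 495 FPKM in control and 576, 602 and 546 FPKM in cisplatin. Its log2 change of 0.15 turned to -0.07 under quantile normalization (adjusted p = 0.191), and its call was also lost without control library 2 (adjusted p = 0.0619), control library 3 (0.104), cisplatin library 1 (0.0596) or cisplatin library 2 (0.0545). Ndufs4, an accessory subunit of the matrix arm, had a log2 change of 0.02 (adjusted p = 0.609), which quantile normalization turned to -0.17 (adjusted p = 0.00301).

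The accessory genes that fell included 3 with a fall of over 2-fold. Ndufc2, a membrane-arm subunit, had 17.0, 17.5 and 17.9 FPKM in control and 7.42, 6.82 and 7.94 FPKM in cisplatin (2.36-fold lower, log2 change -1.14 ± 0.0571 SE, adjusted p = 1.55e-06). Ndufv3, at the tip of the matrix arm, had 31.8, 33.3 and 34.0 FPKM in control and 15.7, 13.8 and 14.0 FPKM in cisplatin (2.28-fold lower). Ndufb3, of the membrane arm, had 15.3, 15.7 and 14.9 FPKM in control and 7.44, 6.27 and 6.0 FPKM in cisplatin (2.33-fold lower). Subunits of the matrix arm and of the membrane arm were thus present among both the genes that rose and those that fell. Ndufb11 fell 1.32-fold and Ndufb4 1.17-fold, and the call of Ndufb4 was lost without control library 1 (adjusted p = 0.0681) or control library 3 (adjusted p = 0.0908).

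In Ndufa3 and Ndufab1, which were not called, cisplatin library 3 stood apart. Ndufa3 had 8.19, 7.35 and 7.87 FPKM in control and 11.3, 10.4 and 7.50 FPKM in cisplatin, and without cisplatin library 3 its log2 change was 0.43 (adjusted p = 0.000846). Ndufab1, the mitochondrial acyl carrier protein, had 7.37, 7.32 and 7.20 FPKM in control and 7.12, 6.06 and 9.72 FPKM in cisplatin.

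**Figure D2:**
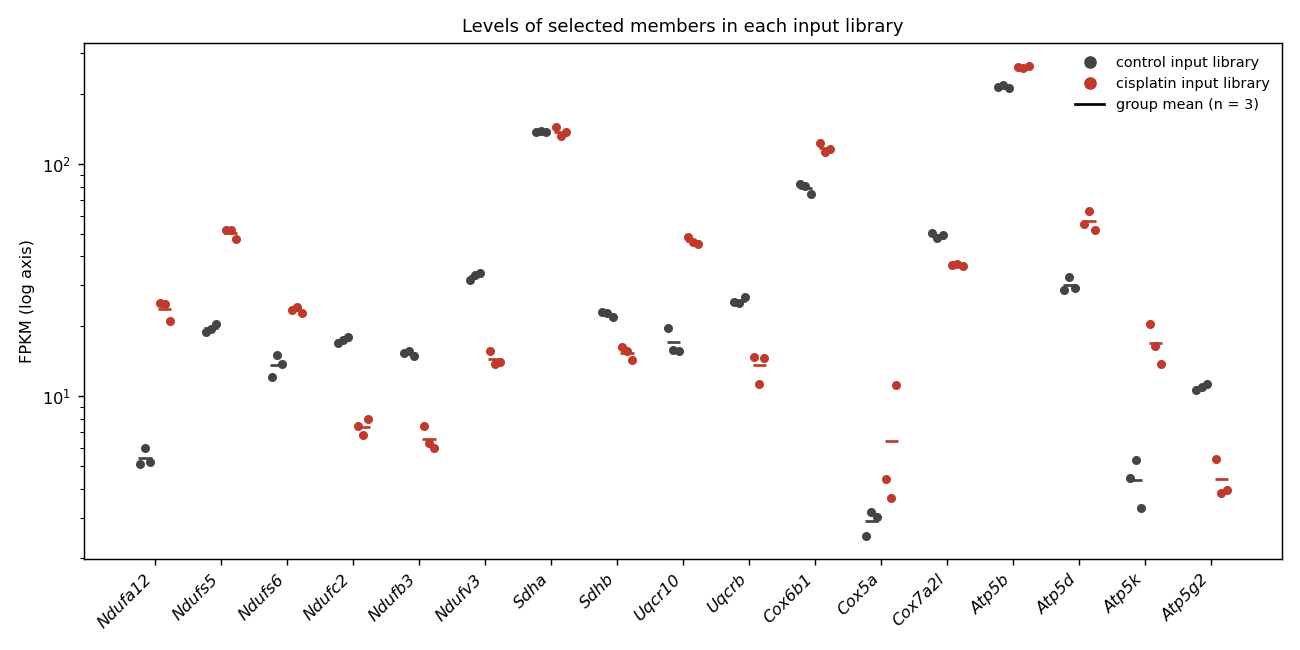
Level in FPKM, on a log axis, of 17 nuclear respiratory chain genes in each control (dark points) and cisplatin (red points) input library, with the group mean as a bar. In Ndufa12, Ndufs5, Uqcr10 and Atp5k the cisplatin points lie clear above the control points, in Ndufc2, Ndufb3, Ndufv3 and Atp5g2 clear below, Sdha overlaps, and Cox5a has 1 cisplatin library at 11.2 FPKM far above the other two.

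Complex I assembly factors are proteins that help to build the complex and are not kept in it. Of the 8 Ndufaf genes, 4 were higher, 2 lower and 2 not called. Ndufaf6, needed for an early membrane intermediate, had 8.57, 11.0 and 9.46 FPKM in control and 19.8, 22.7 and 19.6 FPKM in cisplatin (2.14-fold, adjusted p = 3.05e-05). Ndufaf2, a paralogue of Ndufa12 that sits on late intermediates, had 1.07, 0.939 and 0.636 FPKM in control and 2.79, 2.47 and 2.56 FPKM in cisplatin (2.96-fold, adjusted p = 5.85e-05). Ndufaf2 and its paralogue Ndufa12 thus both rose.

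Ndufaf3 and Ndufaf4 encode partner proteins that act together on the quinone module, and they moved in opposite directions. Ndufaf3 had 4.46, 4.81 and 5.32 FPKM in control and 2.40, 2.20 and 2.70 FPKM in cisplatin (2.0-fold lower, adjusted p = 6.85e-05). Ndufaf4 had 4.30, 4.49 and 4.43 FPKM in control and 6.30, 6.27 and 6.75 FPKM in cisplatin (1.46-fold higher, adjusted p = 9.78e-05). Ndufaf1, of the complex that assembles the membrane arm, rose 1.44-fold, and Ndufaf7, a methyltransferase, fell 1.47-fold. Ndufaf5 and Ndufaf8, another pair of partners, were not called, although all their cisplatin values lay below the control values. Ndufaf8 had 8.12, 8.22 and 7.92 FPKM in control and 7.06, 3.97 and 6.91 FPKM in cisplatin, where library 2 stood lowest (adjusted p = 0.0623, and 0.0498 with the replicate number as a block). It was called when any 1 cisplatin library was left out (adjusted p = 0.039, 0.00933 and 0.0452 without libraries 1, 2 and 3).

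Complex II, succinate dehydrogenase, takes part in both the respiratory chain and the citric acid cycle, and all of its subunits are nuclear. Of its 4 genes, 1 was higher, 2 were lower and 1 was not called. Sdha, the flavoprotein that oxidises succinate, had 138, 139 and 138 FPKM in control and 144, 132 and 138 FPKM in cisplatin, so its groups overlapped (log2 change -0.01, adjusted p = 0.887). Sdha was called lower under quantile normalization (-0.22, adjusted p = 0.000884) and after rescaling (-0.11, adjusted p = 0.022). Sdhb, the iron-sulfur subunit, had 23.1, 22.9 and 22.0 FPKM in control and 16.3, 15.7 and 14.3 FPKM in cisplatin (1.47-fold lower, adjusted p = 5.29e-05). Of the 2 membrane anchors, Sdhc had 24.0, 22.4 and 24.2 FPKM in control and 28.7, 30.1 and 26.5 FPKM in cisplatin, a 1.21-fold rise. Sdhd had 46.6, 44.1 and 48.6 FPKM in control and 44.1, 37.1 and 39.9 FPKM in cisplatin, a 1.15-fold fall. The subunits of this complex thus went in different directions. The fall of Sdhd was not called when any one of control library 1 (adjusted p = 0.0674), control library 3 (0.0888), cisplatin library 2 (0.0581) or cisplatin library 3 (0.0601) was left out.

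Complex III, the cytochrome bc1 complex, passes electrons from ubiquinol to cytochrome c. Of its 8 genes, 3 were higher, 2 lower and 3 not called. Uqcr10, one of its small subunits, had 19.6, 15.8 and 15.7 FPKM in control and 48.3, 46.3 and 45.3 FPKM in cisplatin (2.74-fold, log2 change 1.41 ± 0.0831 SE, adjusted p = 3.25e-06). Uqcrb, which helps to form the quinone site, had 25.4, 25.2 and 26.7 FPKM in control and 14.8, 11.3 and 14.6 FPKM in cisplatin (1.90-fold lower, adjusted p = 8.15e-05). In both genes the groups were clear of each other. Uqcrfs1, the Rieske iron-sulfur protein and a catalytic subunit, had 87.1, 80.7 and 82.4 FPKM in control and 115, 104 and 119 FPKM in cisplatin (1.35-fold, adjusted p = 0.000241). The hinge protein gene Uqcrh rose from 78.7 ± 0.505 to 114 ± 6.61 FPKM. The 2 large core proteins, which hold no cofactor, differed. Uqcrc2 had 26.4, 24.7 and 24.5 FPKM in control and 18.2, 17.4 and 20.1 FPKM in cisplatin (1.36-fold lower, adjusted p = 0.000341). Uqcrc1 had 25.2, 24.9 and 26.2 FPKM in control and 27.0, 26.8 and 26.8 FPKM in cisplatin and was not called (adjusted p = 0.0700). Uqcr11 (43.6 ± 2.56 and 43.6 ± 2.54 FPKM) and Uqcrq (84.7 ± 1.13 and 90.0 ± 8.08 FPKM) overlapped between the groups, and Uqcrq was called at a log2 change of 0.14 without cisplatin library 3 (adjusted p = 0.035). Of 5 genes of complex III, cytochrome c and their assembly with names outside the set, 2 were higher, 1 lower and 2 not called. Cyc1, the cytochrome c1 of the complex, fell 1.26-fold (adjusted p = 0.00801), and Cycs, cytochrome c, rose 1.53-fold (adjusted p = 2.12e-05).

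Complex IV, cytochrome c oxidase, reduces oxygen with catalytic subunits that come from mitochondrial DNA, and its Cox genes in the nucleus encode the subunits around them. Of the 11 genes, 3 were higher, 5 lower and 3 not called. None of the isoforms restricted to tissue or condition (Cox4i2, Cox6a2, Cox6b2, Cox7a1, Cox8b, Cox8c and, beside Ndufa4, Ndufa4l2) was among the 84 genes. Cox6b1, which faces the intermembrane space, had 82.0, 80.6 and 74.1 FPKM in control and 123, 113 and 116 FPKM in cisplatin (1.49-fold, adjusted p = 2.53e-05). Cox6a1 and Cox5b were higher by 1.23-fold and 1.16-fold, and both calls were lost under quantile normalization (adjusted p = 0.133 and 0.196). Cox7a2l, a factor that joins complexes III and IV into supercomplexes, had 50.7, 48.1 and 49.3 FPKM in control and 36.8, 37.2 and 36.5 FPKM in cisplatin (1.34-fold lower, adjusted p = 1.26e-05).

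Cox7c fell from 28.4 ± 0.881 to 20.8 ± 2.43 FPKM, Cox6c from 40.6 ± 1.02 to 33.8 ± 2.85 FPKM and Cox7b from 127 ± 2.84 to 113 ± 4.42 FPKM. Cox4i1, a regulatory subunit that binds nucleotides, had 96.5 ± 0.357 and 88.8 ± 4.96 FPKM. It was called lower at an adjusted p of 0.032, and leaving out any library other than cisplatin library 1 raised that to between 0.0719 and 0.0868. Ndufa4 was lower by 1.13-fold (14.8 ± 0.727 and 13.1 ± 0.53 FPKM, adjusted p = 0.0158, and 0.0621 without control library 2). Counting Ndufa4 with complex IV gave 3 higher, 6 lower and 3 not called of 12 genes, with a median log2 change of 0.02.

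In Cox5a, a subunit of the matrix side, 1 library stood apart. The gene had 2.51, 3.16 and 3.03 FPKM in control and 4.39, 3.65 and 11.2 FPKM in cisplatin, all above control, with cisplatin library 3 far from the other two. Its log2 change of 0.79 ± 0.336 SE was not called (adjusted p = 0.0608). Without cisplatin library 3 the log2 change was 0.36 (adjusted p = 0.0189), and without cisplatin library 2 it was 1.06 (adjusted p = 0.02).

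Complex V, ATP synthase, has a catalytic head, F1, driven by a ring of c subunits in the membrane. Of its 16 genes, 9 were higher, 5 lower and 2 not called (87.5% called). Of the 5 genes of F1, 3 were higher, 1 was lower and 1 was not called. Atp5b, the catalytic beta subunit, had 215, 218 and 212 FPKM in control and 263, 260 and 264 FPKM in cisplatin, a 1.22-fold rise (adjusted p = 4.55e-05). Atp5a1, the alpha subunit, had 131, 131 and 127 FPKM in control and 164, 182 and 149 FPKM in cisplatin, a 1.27-fold rise (adjusted p = 0.00219). Both rises were no longer called under quantile normalization, where the log2 changes were 0.06 (adjusted p = 0.0692) and 0.14 (adjusted p = 0.139).

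The 3 genes of the central stalk of F1 differed from one another. Atp5d, the delta subunit, had 28.8, 32.7 and 29.2 FPKM in control and 55.3, 63.0 and 51.8 FPKM in cisplatin, a 1.88-fold rise (log2 change 0.88 ± 0.0792 SE, adjusted p = 2.86e-05). Atp5e, the epsilon subunit, had 19.8, 19.3 and 19.2 FPKM in control and 17.2, 15.8 and 16.3 FPKM in cisplatin, a 1.18-fold fall. Atp5c1, the gamma subunit, had 87.4, 89.4 and 86.5 FPKM in control and 80.4, 79.4 and 86.3 FPKM in cisplatin and was not called (adjusted p = 0.0527). Without cisplatin library 3 its log2 change of -0.10 became -0.13 (adjusted p = 0.00364), and it was also called after quantile normalization and rescaling to a common sum (-0.31 and -0.20).

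The strongest rise in complex V was in Atp5k, the e subunit, which takes part in pairing ATP synthases along the cristae. It had 4.46, 5.32 and 3.30 FPKM in control and 20.5, 16.4 and 13.7 FPKM in cisplatin (3.87-fold, log2 change 1.74 ± 0.175 SE, adjusted p = 5.44e-05). Atp5l, the g subunit and its partner in the membrane, fell from 14.0 ± 0.541 to 10.5 ± 0.252 FPKM (adjusted p = 0.000102). Subunits e and g thus moved in opposite directions. Of the side stalk that holds F1 in place, Atp5h (d) fell 1.21-fold, Atp5o (the oligomycin sensitivity protein) was called lower by 1.13-fold, Atp5j (F6) was higher by 1.20-fold and Atp5f1 (b) had 25.0 ± 0.145 and 23.0 ± 1.77 FPKM without a call (adjusted p = 0.0819, and 0.00197 without cisplatin library 3). The call of Atp5o was lost without any 1 library except cisplatin library 1, at adjusted p-values of 0.0599 to 0.0808, and that of Atp5j under quantile normalization (adjusted p = 0.158). Atp5j2 (f) was higher by 1.17-fold, a call lost on rescaling to a common sum (adjusted p = 0.0594), and Atp5s, also named for the coupling factor B, rose 1.44-fold.

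The c subunit is encoded by 3 genes, Atp5g1, Atp5g2 and Atp5g3, whose precursors differ in the import sequence and give the same mature protein. Atp5g2 had 10.6, 10.9 and 11.3 FPKM in control and 5.38, 3.83 and 3.95 FPKM in cisplatin, a 2.5-fold fall (log2 change -1.16 ± 0.107 SE, adjusted p = 3.26e-05) and the largest fall among the 84 genes. Atp5g3 had 24.2, 26.3 and 24.9 FPKM in control and 30.3, 31.1 and 29.9 FPKM in cisplatin, a 1.21-fold rise (adjusted p = 0.000516). Atp5g1 had 5.34, 4.74 and 4.65 FPKM in control and 5.87, 6.55 and 5.48 FPKM in cisplatin, a 1.22-fold rise (adjusted p = 0.0227) that was not called without control library 2 (0.0757), control library 3 (0.0812), cisplatin library 1 (0.0516) or cisplatin library 2 (0.0586). The sum of the 3 genes was 41.0 ± 0.854 FPKM in control and 40.8 ± 1.27 FPKM in cisplatin. In FPKM as deposited the groups thus overlapped in the sum, while its makeup differed. Total FPKM over all listed genes was higher in the cisplatin libraries, and the sum of the 3 genes was not rescaled for this. The share of Atp5g2 in the sum was 26.7 ± 0.85% in control and 10.8 ± 1.91% in cisplatin, and that of Atp5g3 was 61.3 ± 1.18% and 74.6 ± 1.58%. These 3 genes are similar in sequence, and the sources used here do not give how fragments shared between them were counted.

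**Figure D3:**
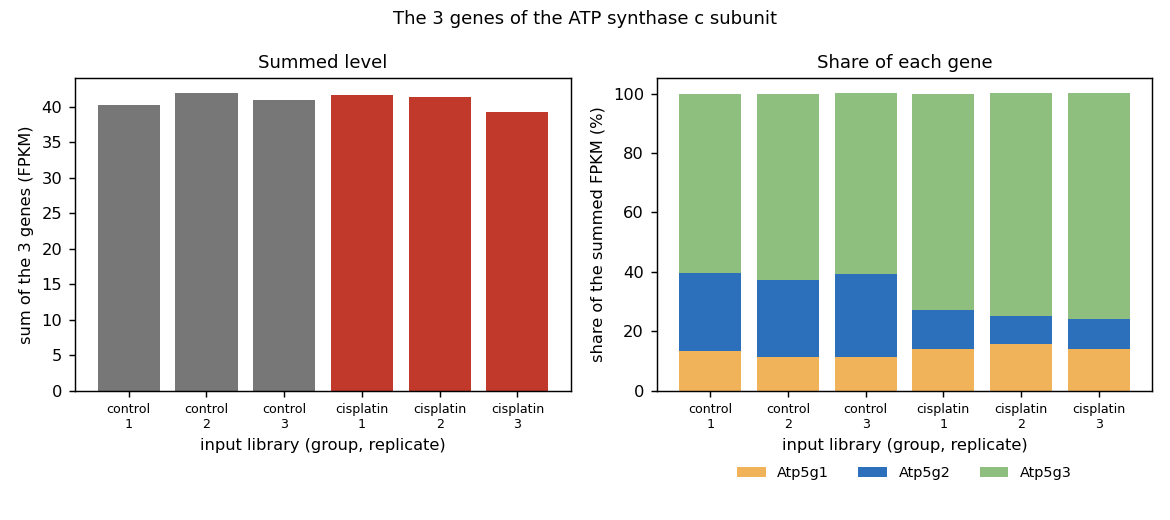
Left, summed FPKM of Atp5g1, Atp5g2 and Atp5g3 in each input library; right, the share of each gene in that sum, in percent. The sums lie between 39.3 and 41.9 FPKM in all 6 libraries, while the share of Atp5g2 lies between 26.1% and 27.7% in control and between 9.25% and 12.9% in cisplatin libraries.

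Levels within a complex were far from equal. In control libraries the mean FPKM of the 84 genes ran from 0.0824 (Ndufb2) to 518 (Ndufa2), with a median of 25.2. FPKM divides by a gene length that is not given in the table. Ndufa2 stood 71.0-fold above Ndufab1 in FPKM but 5.9-fold above it in fragments. The span of 11 of the 84 genes overlaps another listed gene, among them Ndufv2, Atp5d, Atp5a1, Atp5c1, Uqcrh and Ndufb11. The libraries mark strand, but whether counting used it is not given, so fragments of such pairs may not be told apart. Of these 11, 5 were higher, 2 lower and 4 not called.

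Genes around the set moved both ways as well. Of 41 listed assembly factors of the 5 complexes with names outside the set, 38 were tested. Of these, 14 were higher, 13 lower and 11 not called, with a median log2 change of 0.04. Uqcc1, Uqcc2 and Uqcc3 are in this list and also among the complex III genes outside the set counted above. Surf1, which acts in the assembly of complex IV, rose from 8.18 ± 0.464 to 22.1 ± 1.49 FPKM (adjusted p = 1.13e-06). Sdhaf4, which acts in the assembly of complex II, fell from 13.0 ± 0.383 to 5.71 ± 0.742 FPKM (adjusted p = 1.13e-05). Coa3 (34.9 ± 0.572 to 23.7 ± 0.871 FPKM) and Coa4 (1.55 ± 0.265 FPKM to 2 fragments in all cisplatin libraries), both named for complex IV assembly, fell.

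Of 16 tested regulators of respiratory genes and of mitochondrial DNA, 8 were higher, 6 lower and 2 not called. Ppargc1a, the coactivator PGC-1alpha, had 13.3, 13.4 and 13.7 FPKM in control and 1.41, 1.25 and 1.71 FPKM in cisplatin, a 9.25-fold fall (adjusted p = 1.9e-07). Among the others, Tfb1m had 6.41, 6.75 and 5.81 FPKM in control and 1 fragment in all cisplatin libraries. Twnk, the gene of the mitochondrial DNA helicase, rose from 23.8 ± 0.449 to 50.2 ± 1.19 FPKM (adjusted p = 2.71e-07). Tefm, which acts in elongation of mitochondrial transcripts, fell from 3.51 ± 0.287 to 0.361 ± 0.191 FPKM (adjusted p = 4.67e-06). Nrf1 and Gabpa are named because their letters were searched upstream. Nrf1 fell from 3.96 ± 0.227 to 2.35 ± 0.20 FPKM (adjusted p = 0.000155), and Gabpa, of the ETS factor GABP, had 18.4 ± 0.812 and 16.2 ± 3.10 FPKM and was not called (adjusted p = 0.179, and 0.00193 without cisplatin library 3).

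Of the 13 subunits encoded in mitochondrial DNA, 11 were tested, and 1 was higher, 7 were lower and 3 were not called, with a median log2 change of -0.30. Their summed level was 2150, 2070 and 2150 FPKM in control and 1580, 1490 and 1710 FPKM in cisplatin libraries, without overlap. mt-Nd5, a proton-pumping subunit of complex I, fell from 287 ± 4.09 to 165 ± 12.9 FPKM (adjusted p = 7.27e-06), and mt-Co1, the catalytic subunit of complex IV, from 741 ± 11.6 to 523 ± 46.2 FPKM (adjusted p = 0.000184). mt-Nd6, which was higher and is named after its values were seen, lies on the other strand from the remaining subunit genes and rose from 105 ± 2.01 to 135 ± 16.9 FPKM (adjusted p = 0.00612), a call that quantile normalization ended (adjusted p = 0.289). As another pathway of energy supply, 15 listed entries of glycolysis enzymes had 7 higher, 4 lower (7 under quantile normalization) and 4 not called, with Hk2 rising from 50.1 ± 1.39 to 92.4 ± 5.43 FPKM and Pfkl falling from 11.4 ± 0.345 to 6.03 ± 0.488 FPKM.

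The second measurement was ac4C. The authors' table lists 19049 peaks, regions where fragments were enriched in the precipitate over the input, with a log2 difference between the treatments. Which treatment a positive value favours is not stated in the file headers, so peaks are described here by sign. All peak values are the authors' own, from 1 comparison over all libraries, with no spread between replicates. Peaks lay in 49 of the 84 genes (58.3%), and in 63.6% of listed protein-coding genes. There were 72 such peaks, of which 42 had a positive and 10 a negative difference at the authors' adjusted p of 0.05 and 20 were not called (72.2% called). Over all peaks 46.2% were called, 36.5% positive and 9.62% negative.

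In complex I, 20 of 32 peaks were positive, 2 negative and 10 not called. Complex V had 12 positive, 2 negative and 2 uncalled peaks of 16, and in complex II all 6 peaks were called, 4 positive and 2 negative. Complex III had 2 positive, 3 negative and 2 uncalled peaks, complex IV 3 positive and 3 uncalled, and the assembly factors 1 positive, 1 negative and 2 uncalled. The single peak of Ndufa4 was not called.

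**Figure D4:**
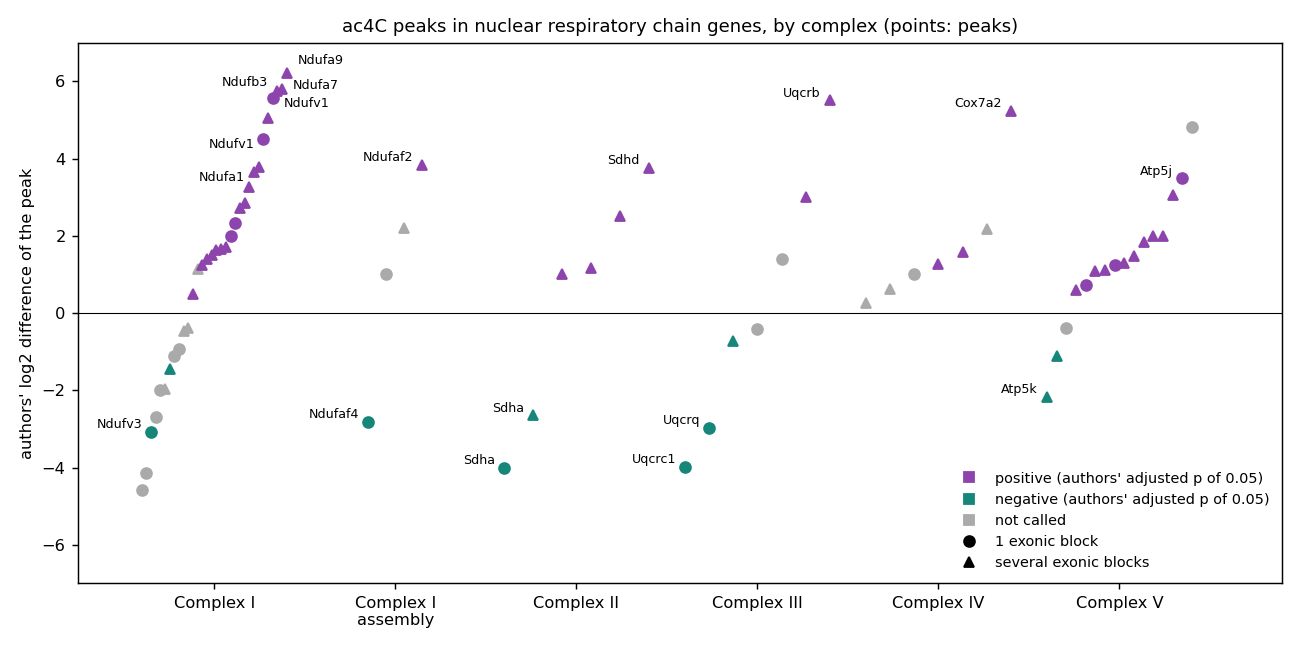
The authors' log2 difference of every ac4C peak in a nuclear respiratory chain gene, by complex, with peaks of 1 exonic block as circles and peaks over several blocks as triangles, and calls at the authors' adjusted p of 0.05 by colour. Positive peaks outnumber negative ones in complexes I (20 to 2), II (4 to 2), IV (3 to 0) and V (12 to 2), and complex III has 3 negative against 2 positive peaks. The single Ndufa4 peak is drawn with complex IV.

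The authors placed 42 of the members' peaks in coding sequence, 25 in exons without further detail, 2 in a 5′ UTR and 3 in a 3′ UTR. The share in a 3′ UTR was 4.17%, where 29.5% of all peaks lay in one, and the share in coding sequence 58.3%, where it was 50.5%. Peaks over several exonic blocks, joined across introns, made up 66.7% of the members' peaks and 44.0% of all peaks. Of these, 83.3% were called in the members and 58.6% over all peaks, while of the peaks of 1 block 12 of 24 were called in the members and 36.3% over all peaks. The median fold enrichment of precipitate over input was 3.86 for the members' peaks and 7.05 for all peaks.

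The peaks of largest positive difference were in Ndufa9, an accessory subunit next to the quinone site, in Ndufa7 and in Ndufb3. The Ndufa9 peak spanned 4 exonic blocks at chr6:126836300-126843741 (mm10, as for all peaks) with a log2 difference of 6.22 and an enrichment of 2.55. The Ndufa7 peak at chr17:33829646-33838167 had 5.81, and the Ndufb3 peak at chr1:58591125-58595730, in coding sequence, had 5.75. Uqcrb had a peak of 5.51 at chr13:66900792-66901230 and Cox7a2 one of 5.24 at chr9:79755538-79758331. Among these genes, the RNA level fell in Ndufb3 and Uqcrb and was not called in the others. Under other settings, Ndufa9 was called lower with quantile normalization (-0.13, adjusted p = 0.0477). Cox7a2 was called higher with the replicate block (0.17, adjusted p = 0.0435) and without cisplatin library 2 (0.27, adjusted p = 0.000759).

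The largest negative differences among called peaks were in Sdha, Uqcrc1 and Ndufv3. Sdha had a negative peak of -4.01 at chr13:74323848-74324057, another of -2.65 at chr13:74333142-74337396, and between them a positive peak of 2.50 at chr13:74331398-74332176, all in coding sequence. Uqcrc1 had a peak of -3.98 at chr9:108948604-108948754. Ndufv3 had 5 peaks, the most of any member, of which 2 were positive (1.65 and 2.0), 1 was negative (-3.07, at chr17:31528067-31528307) and 2 were not called. One of the uncalled Ndufv3 peaks, at -4.58, and an uncalled peak of Ndufb7, at -4.13, had lower values than any called peak. Peaks of opposite sign thus lay in the same gene in Sdha and Ndufv3, and of the 14 other settings tried, the RNA of Sdha was called under quantile normalization and rescaling alone.

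The nuclear core subunits of complex I had 9 peaks, with 7 positive, 1 negative and 1 not called. Ndufv1 had 4 peaks, all in coding sequence and all positive, with differences of 1.39, 5.57, 4.51 and 1.25 along chr19 from 4007645 to 4011299. Ndufs1 had 1 positive peak (2.84) and Ndufs8 1 peak without a call. Input RNA was not called in Ndufv1, Ndufs1 or Ndufs8, apart from the calls of Ndufv1 and Ndufs1 given above under other scalings and without 1 library.

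In F1 of ATP synthase, Atp5b had 2 positive peaks (0.715 and 1.29), Atp5c1 2 positive peaks (1.47 and 1.11), Atp5d 1 positive peak (1.99) and 1 without a call, and Atp5a1 2 positive peaks and 1 negative peak. The RNA of Atp5b, Atp5d and Atp5a1 rose, and that of Atp5c1 was not called. Atp5g2, whose RNA fell, had 1 positive peak of 1.99 at chr15:102665796-102671068, and Atp5k, whose RNA rose, had 1 negative peak of -2.17 at chr5:108433303-108434184. Uqcr10, whose RNA rose, also had 1 negative peak (-0.729).

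Set beside the input RNA, the 29 genes with positive called peaks alone had 7 higher, 11 lower and 11 uncalled RNA levels. The 5 genes with negative called peaks alone had 3 higher and 2 uncalled levels. Genes with peaks of both signs were 1 higher, 1 lower and 2 not called. Genes with a peak but no called one were 4 higher, 3 lower and 4 not called. The file headers do not state whether the peak difference is taken relative to input. If it is, the 2 measures share the input libraries. No test of their relation was made. The median control level was 25.8 FPKM in members with a peak and 19.4 FPKM in members without one.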

How the data were processed

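Values per library came from the 6 input libraries, whose FPKM were made by the authors. The precipitate libraries enter through the authors' peak table alone. Per the submitters' processing notes, fastp, FastQC, HISAT2 and HOMER were used with build mm10; roles, annotation, strand setting and peak caller are not stated there or in the labels. The deposited tables also hold the authors' log2 fold changes, p-values and adjusted p-values, a fold enrichment ratio per peak, and the log10 p of peaks, a score here.

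Genes with at least 1 FPKM in 3 libraries were tested with limma 3.58.1 (R 4.3.3; lmFit, eBayes with mean trend) on log2(FPKM + 1), 3 cisplatin against 3 control libraries, with Benjamini-Hochberg adjustment over 11449 genes. A log2 change on this scale understates that of low genes. Ndufb2, Ndufaf2, Tek and the lower of the Aldoa entries among the glycolysis enzymes needed their cisplatin libraries to pass the filter. Coa4, Coa6, Sco2, Lyrm7, Tfb1m, Tefm, Muc16 and Lrrn4 needed their control libraries. For all of these genes, which enter the counts of their lists, the direction of change was tied to how they passed. The fit recovered known changes in simulated fragments, where both groups had the same spread and few genes changed. Here the spread was wider after cisplatin and most genes were called, so the simulation does not check the calls given. Whole fragments were recovered from the FPKM steps for all 14852 genes (tolerance 0.0001), and intervals of depth cover counting error only. Members and gene lists were chosen with earlier results of these data known. The fixed naming rule gave library values for core, catalytic and F1 subunits and up to 4 members per complex with the largest change in each direction, peaks of core subunits and the 3 largest peaks of each sign, and up to 4 genes of other lists by smallest adjusted p; others were chosen after their values were seen. Complexes were assigned by symbol. One member enters the counts, and its own values are not reported here. Peaks were called at the authors' adjusted p of 0.05, with starts converted to count from 1. RefSeq spans and upstream sequences (GRCm38.p6) were matched by symbol.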

Additional observations from a re-analysis of the deposited data

How the results depend on the processing

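Counts of calls by complex and gene list, medians of complexes and the changes of single members were recomputed under 14 other settings; summed levels, shares of the c subunit genes and motif counts were not. The settings were another pseudocount, no filter and a filter at 5 FPKM, quantile normalization, rescaling to a common sum, no mean trend, the replicate number as a block, each library left out in turn, and voom on recovered fragments, which was chosen after seeing the data. The planned edgeR count test was not run, since the table holds FPKM. Counts of higher and lower members over the whole set stayed within 1.5 times the reported ones in all 14, but quantile normalization and rescaling both gave 26 higher and 35 lower, and voom 29 and 28. Without 1 library, 29 to 37 members were higher and 20 to 26 lower. Single complexes moved by more: the lower genes of complex I went from 7 to 14 under quantile normalization and to 13 on rescaling, the lower assembly factors from 2 to 4 on rescaling and to 1 at 5 FPKM, and the higher genes of complex IV from 3 to 6 with the replicate block and to 5 without cisplatin library 2. Of the other lists, lower glycolysis entries went from 4 to 7 and the 1 higher mitochondrially encoded gene was lost under quantile normalization, and at 5 FPKM lower assembly factors outside the set went from 13 to 6 and lower regulators from 6 to 3, with fewer genes tested. Medians of complexes moved as follows. At 5 FPKM, with 76 members tested, complex IV had 0.02 and the assembly factors 0.46. Quantile normalization gave -0.08 for complex I, -0.29 for II, -0.08 for III, 0.0 for IV and 0.07 for V. Rescaling gave -0.07 for I, -0.20 for II, -0.02 for III, 0.13 for V and 0.09 for the assembly factors. Voom gave -0.04 for I and 0.18 for V. Quantile normalization reversed Ndufs4 (-0.17) and Ndufa2 (-0.07). The cause of these moves was not tested. Of 55 called members, 36 were tested in all 14 settings and kept call and direction, 5 more kept them wherever tested but fell below the filter at 5 FPKM, and 14 lost the call in at least 1; of the 29 uncalled members, 23 gained a call in at least 1. Counts of positive and negative peaks were 31 to 42 and 9 to 10 under stricter thresholds, a minimum enrichment of 2 and the RefSeq span. Control and cisplatin libraries of the same number had correlations of 0.0975, -0.116 and 0.0428 in their deviations. Those of different numbers ran from -0.166 to 0.0777. Values this small from 3 libraries per group do not settle whether the numbers pair the samples. The replicate block gave 34 higher and 25 lower members and added calls for Cox5a, Cox7a2, Cox8a and Ndufaf8. In this balanced design a block cannot alter a log2 change. The medians were thus the same by design, at 0.03, -0.10, 0.08, 0.17 and 0.22 for complexes I to V. That of the assembly factors was 0.17. Depth limits Ndufb2, which rests on 31 control fragments.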
